A study of Homo sapiens with 20 samples.

Results

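POU transcription factors were followed through the differentiation of human neural progenitor cells into neurons. The genes examined were POU2F1, POU2F2, POU3F1, POU3F2, POU3F3, POU3F4, POU4F1, POU4F2 and POU6F1, chosen by symbol among the protein-coding gene records of the deposited tables. They made up 9 of the 20237 coding records and 9 of the 16 POU genes that had a coding record. Each of the 9 symbols had a single coding record, and none of these records was merged with another gene.

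The cells were progenitors made from the H1 line, a long-used line of human embryonic stem cells, and polyadenylated RNA was sequenced on day 0, with FGF still in the medium until that day, and 1, 2, 4, 5, 11 and 18 days after FGF was withdrawn and BDNF added. The labels list 20 samples, 3 cultures a day except for 2 on day 5, where the submitters took out 1 outlier. Cells for days 0 to 4 grew on Matrigel, whereas those collected later were moved on day 4 to wells with Poly-D-lysine and laminin. All cultures came from a single cell line, and the deposited tables hold, for a record on a given day, 1 FPKM value that the authors computed from all of its cultures. FPKM counts sequenced fragments relative to transcript length and to all mapped fragments, so that it can be compared between genes. The values carried no spread between cultures, and the depth behind them is unknown. No test was therefore possible, and all differences are given as descriptions, with their size and with the share of all coding records that moved as far.

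POU factors bind DNA through a POU-specific domain joined by a flexible linker to a POU homeodomain, and many of them recognize the octamer motif. They are sorted into classes by sequence. Class II holds the Oct-1 and Oct-2 proteins, class III the Brn-1, Brn-2, Brn-4 and Oct-6 proteins of the developing brain, and class IV the Brn-3 proteins of sensory and other projection neurons. BRN2 (POU3F2), together with other factors such as MYT1L, is known for turning fibroblasts into neurons, whereas OCT4 (POU5F1) maintains pluripotent cells.

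Over the 18 days, the genes of class III held most of the POU signal at all 7 times, but POU2F2, POU4F1 and POU4F2 gained most. The summed level of the 9 genes was 155, 119, 135, 134, 159, 246 and 187 FPKM in the order of the 7 days, from day 0 to day 18, as are all series of 7 values. Class III made up 89.2% of that sum at day 0 and 68.3% at day 18, while class IV went from 1.77% to 16.2% by way of 18.9% at day 11, and class II from 8.06% to 14.1%. Class VI stayed between 0.784% and 1.74%. POU3F2 was the highest and POU3F3 the next highest of the 9 genes at all 7 times.

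**Figure D1:**
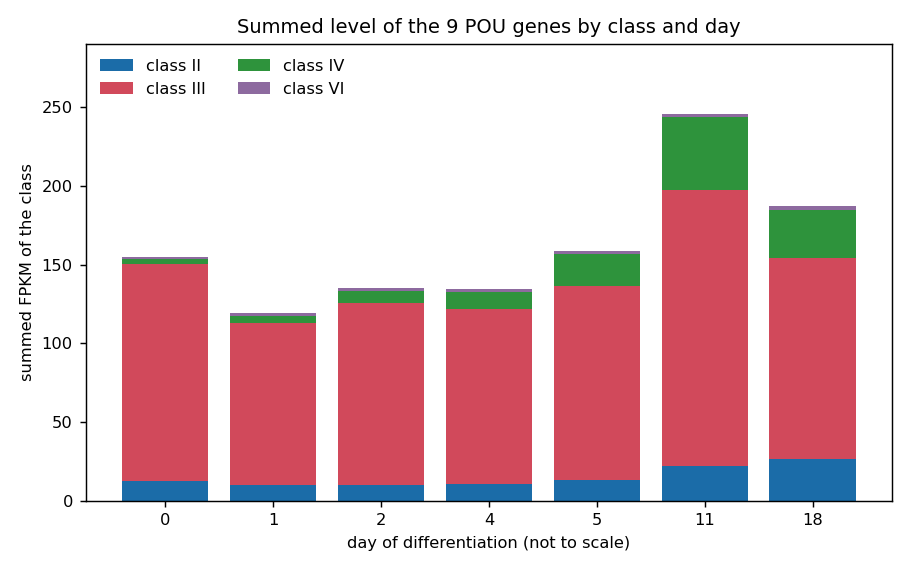
Summed FPKM (vertical axis, from 0) of the POU genes of each class on each of the 7 days (horizontal axis, not to scale), with the classes stacked in colors. The stack is tallest at day 11, at 246 FPKM, and the class IV layer grows from 2.75 FPKM at day 0 to 46.4 at day 11.

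The deposited scale itself drifted along the series. FPKM summed over all records to 413978 at day 0 and 251156 at day 18, and the median log2 change of coding records averaging 1 FPKM or more was -0.60 between these days. Changes of the POU genes are thus also given relative to this median. Markers of the labelled cells were present. Of the 6 neural stem cell markers, 2 (HES5 and PAX6) were higher past 2-fold at day 18 than at day 0 and 1 (NES) was lower, with NES at 513 and SOX2 at 126 FPKM on day 0. Of the 7 neuron markers, 5 were higher and 1, NEFL, was lower. Among the 14107 coding records averaging 0.1 FPKM or more, 10.6% were higher and 28.2% lower past 2-fold between these days. The summed level of the neuron markers was 684 FPKM at day 0 and 1650 at day 18. Of these sums, 382 and 502 FPKM came from TUBB3, read from a record merged with MC1R and TUBB2C. STMN2 went from 32.3 to 727 FPKM, DCX from 5.46 to 88.0, SNAP25 from 2.63 to 16.6 and SYT1 from 15.6 to 41.1. Relative to the median, NES and NEFL were no longer past 2-fold, at log2 changes of -0.91 and -0.57. The pluripotency genes POU5F1 and NANOG did not exceed 0.108 FPKM on any day, and of the 3 records on that list only DPPA4, at 9.72 and then 2.25 FPKM, was above 0.1 on average. The summed level of 5 mesenchymal markers was 330 FPKM at day 0 and 35.0 at day 18, with PLAU at 57.2 and then 0.404, COL1A2 at 33.6 and then 3.81, COL3A1 at 238 and then 30.5 FPKM and COL1A1 listed at 0 on all days, and that of 7 astrocyte and oligodendrocyte lineage markers lay between 0.679 and 1.51 FPKM. In bulk cultures, fewer cells of a type and less RNA per cell cannot be told apart, and the part of these shifts in the POU values was not tested.

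**Figure D2:**
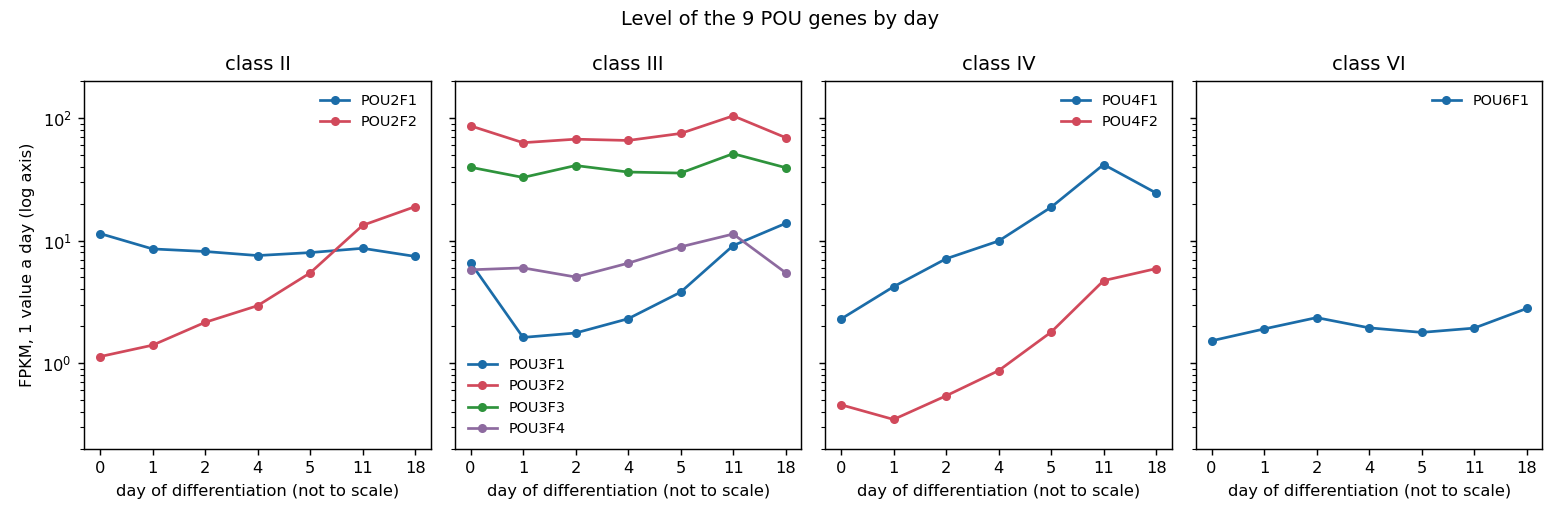
FPKM on a log axis (vertical) of the 9 POU genes on the 7 days (horizontal, not to scale), in a panel for each class, where a point is the authors' single value for that day. POU2F2 crosses POU2F1 between days 5 and 11, POU3F1 dips to 1.62 FPKM at day 1, and POU4F1 peaks at 41.7 FPKM at day 11.

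Class II was examined first. POU2F1 (chromosome 1, 167190143 to 167385342, plus strand, hg19) encodes Oct-1, a widely expressed activator of histone H2B and small nuclear RNA genes. Its level was 11.4, 8.54, 8.14, 7.54, 7.97, 8.64 and 7.42 FPKM, day by day. The highest day thus exceeded the lowest only 1.53-fold. The change from day 0 to day 18 was -0.61 in log2(FPKM + 0.1), the scale of all log2 changes given here, and -0.01 relative to the median coding record. Relative to that median it was -0.30, -0.42, -0.51 and -0.36 on days 1, 2, 4 and 5 against day 0. The change of POU2F1 from day 0 was thus below the median change early and level with it at day 18. When each day was divided by its summed FPKM, the change turned to 0.11.

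POU2F2 (chromosome 19, 42592673 to 42636630, minus strand, hg19) encodes Oct-2, best known from B cells and also made in neurons. The authors' values were 1.13, 1.40, 2.15, 2.94, 5.44, 13.3 and 18.9 FPKM, day by day. Each day was higher than the one before, and day 4 was the earliest day above 2 times the day 0 level. At day 18 the level was 16.7 times that of day 0, a log2 change of 3.94 as deposited and of 4.54 relative to the median coding record. The ratio of POU2F2 to POU2F1 went from 0.0996 on day 0 to 0.682, 1.54 and 2.54 on days 5, 11 and 18, so that the order of the class II pair was inverted by day 11. As deposited, no B cell marker was higher past 2-fold beside it. Of 5 such genes, CD79B and MS4A1 did not exceed 0.0205 FPKM, CD79A lay between 0.114 and 0.361 FPKM, and PAX5 went from 3.48 to 0.523 FPKM. The summed level of the 5 was between 0.681 and 3.62 FPKM. Of all coding records averaging 0.1 FPKM or more, 10.6% were higher past 2-fold from day 0 to day 18.

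Upstream sequences from RefSeq (build GRCh38.p14, which differs from the hg19 build of the expression values) are shown for the genes whose levels differed most between days and for class III. The windows searched ran from 250 bases before to 50 bases after an annotated start, and 12 of them belonged to the 9 genes. Among the POU2F1 windows, the first 2, starting at 167220636 and 167220635 on chromosome 1, covered nearly the same bases. The octamer was searched as ATTTGCAT on both strands, that is, also as ATGCAAAT, and occurred in 623 of 35116 RefSeq windows (1.77%). Among the 12 windows it was found in the third of the 3 POU2F1 windows alone, with its first base 179 bases before the start. That stretch, chr1:167328880-167328909 on the plus strand, is shown first with the octamer in capitals, followed by bases 250 to 51 before the start of POU2F2 (chr19:42132497-42132696, minus strand), which held no match.
POU2F1 octamer: aacgaggagagATTTGCATaaggccctaat
POU2F2 upstream: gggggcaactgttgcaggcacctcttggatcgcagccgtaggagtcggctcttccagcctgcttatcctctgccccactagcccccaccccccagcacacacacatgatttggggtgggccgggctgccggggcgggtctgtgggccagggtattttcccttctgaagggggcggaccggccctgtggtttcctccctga

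Class III contained the 2 highest POU genes and the only one of the 9 genes that was lower past 2-fold at day 1. POU3F1 (chromosome 1, 38509523 to 38512450, minus strand, a single exon) encodes Oct-6, a factor of Schwann cells and of early neural cells. Levels were 6.59, 1.62, 1.76, 2.30, 3.79, 9.09 and 13.8 FPKM, day by day. Day 1 stood at 0.246 times day 0, all later days were higher than the day before them, and day 11 was the earliest above day 0 again. The log2 change from day 0 to day 1 was -1.96, and only 0.447% of the coding records averaging 0.1 FPKM or more had a lower value. From day 0 to day 18 it was 1.06, and 0.96 with a pseudocount of 1, which is no longer past 2-fold.

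POU3F2 (chromosome 6, 99282580 to 99286665, plus strand, a single exon) encodes Brn-2, a factor of neural progenitors and upper-layer cortical neurons. Its level was 86.2, 62.8, 67.1, 65.5, 74.7, 104 and 69.1 FPKM, day by day. On all days it exceeded at least 95.8% of the coding records, and the highest day was 1.65 times the lowest. POU3F3 (chromosome 2, 105471969 to 105473470, plus strand, a single exon) encodes Brn-1, which acts with Brn-2 in the developing cortex. The authors' values were 39.6, 32.7, 40.9, 36.2, 35.5, 51.1 and 39.3 FPKM, day by day. The ratio of POU3F2 to POU3F3 stayed between 1.64 and 2.18, and both genes were highest at day 11.

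POU3F4 (chromosome X, 82763269 to 82764775, plus strand, a single exon) encodes Brn-4, a factor of the inner ear and the developing striatum. Levels were 5.77, 5.98, 5.04, 6.53, 8.88, 11.3 and 5.46 FPKM, day by day. It too was highest at day 11, at 1.96 times day 0, and day 18 was back near day 0. From day 11 to day 18 its log2 change was -1.04, just past 2-fold, and -0.76 relative to the median coding record. POU3F1 alone in class III was higher at day 18 than at day 11, by a log2 change of 0.60. Between day 0 and day 18 the log2 changes of POU3F2, POU3F3 and POU3F4 were -0.32, -0.01 and -0.08 as deposited, and 0.28, 0.59 and 0.52 relative to the median coding record, so that the direction of all 3 depended on the scaling.

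The sequences before the starts of the class III genes shared a feature. All 4 windows held at least 2 copies of the CCAAT box, searched as CCAAT on both strands and so also as ATTGG, a motif chosen after the sequences had been seen. It was present in 34.6% of all 35116 windows, at least 2 times in 10.8% and at least 3 times in 3.26%. The 8 windows of the other POU genes examined held none, and the first 2 POU2F1 windows among them covered nearly the same bases. Copies began 216, 175 and 82 bases before the start in POU3F1, 135 and 72 in POU3F2, 160, 103 and 84 in POU3F3, and 229, 126 and 85 in POU3F4. A match of these letters is a description and shows no binding. Capitals mark the copies in bases 250 to 51 before the start of POU3F1 (chr1:38046844-38047043, minus strand), POU3F2 (chr6:98834324-98834523, plus strand), POU3F3 (chr2:104853865-104854064, plus strand) and POU3F4 (chrX:83508040-83508239, plus strand), where ATTGG is the box read on the other strand.
POU3F1 upstream: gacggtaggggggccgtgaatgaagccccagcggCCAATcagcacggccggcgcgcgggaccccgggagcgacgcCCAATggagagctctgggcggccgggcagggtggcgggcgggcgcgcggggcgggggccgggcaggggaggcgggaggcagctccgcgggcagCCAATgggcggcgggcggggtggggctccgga
POU3F2 upstream: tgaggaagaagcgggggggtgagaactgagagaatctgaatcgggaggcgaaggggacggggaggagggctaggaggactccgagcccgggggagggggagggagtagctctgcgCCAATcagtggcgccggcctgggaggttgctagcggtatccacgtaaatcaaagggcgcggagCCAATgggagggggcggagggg
POU3F3 upstream: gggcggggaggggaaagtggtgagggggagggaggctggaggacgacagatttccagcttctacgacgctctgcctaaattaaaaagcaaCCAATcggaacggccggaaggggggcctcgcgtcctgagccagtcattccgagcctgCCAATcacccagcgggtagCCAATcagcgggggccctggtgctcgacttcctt
POU3F4 upstream: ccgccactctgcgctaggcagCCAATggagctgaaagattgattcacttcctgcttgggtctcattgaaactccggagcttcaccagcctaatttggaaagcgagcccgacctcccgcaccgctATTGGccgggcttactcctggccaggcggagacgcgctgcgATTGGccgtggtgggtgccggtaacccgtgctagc

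Class IV was the class with the largest relative gain. POU4F1 (chromosome 13, 79173232 to 79177695, minus strand, 2 exons) encodes Brn-3a, a factor of sensory neurons, the habenula and other projection neurons. Its level was 2.29, 4.20, 7.10, 9.91, 18.7, 41.7 and 24.4 FPKM, day by day. It was above 2 times the day 0 level from day 2 on, the earliest of the 9 genes, and reached 18.2 times day 0 at day 11. At that time its level exceeded that of 94.1% of the coding records, against 48.6% at day 0. At day 18 it was lower than at day 11 by a log2 change of -0.77, or -0.49 relative to the median coding record, and still 10.7 times day 0.

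POU4F2 (chromosome 4, 147560045 to 147563622, plus strand, 2 exons) encodes Brn-3b, a factor of retinal ganglion cells. The authors' values were 0.457, 0.347, 0.541, 0.868, 1.79, 4.71 and 5.90 FPKM, day by day. Day 5 was the earliest above 2 times day 0, and day 18 was 12.9 times day 0, a log2 change of 3.43. The ratio of POU4F1 to POU4F2 was 5.01, 13.1 and 4.14 on days 0, 2 and 18, so that POU4F1 led early and POU4F2 drew nearer late. The third gene of the class, POU4F3, known from auditory hair cells, was at 0.0324, 0.965 and 0.817 FPKM on days 0, 11 and 18. It stayed below POU4F2 on all 7 days.

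The sequences upstream of POU4F1 (chr13:78603603-78603802, minus strand) and POU4F2 (chr4:146638643-146638842, plus strand), bases 250 to 51 before the start, are shown because these genes, with POU2F2, had the 3 largest changes. Neither window held the octamer or the CCAAT box, and so no base is in capitals.
POU4F1 upstream: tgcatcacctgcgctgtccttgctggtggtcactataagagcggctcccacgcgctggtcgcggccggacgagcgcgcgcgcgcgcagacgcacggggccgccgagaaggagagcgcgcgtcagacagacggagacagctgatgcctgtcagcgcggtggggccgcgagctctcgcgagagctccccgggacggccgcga
POU4F2 upstream: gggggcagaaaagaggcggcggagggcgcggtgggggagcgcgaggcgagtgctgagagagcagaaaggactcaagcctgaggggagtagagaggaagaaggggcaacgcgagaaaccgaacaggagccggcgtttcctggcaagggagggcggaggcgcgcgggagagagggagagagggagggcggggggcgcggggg

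Because class IV genes mark sensory and retinal neurons, the markers of those cells were read beside them. Of 8 sensory neuron and neural crest markers, 5 averaged 0.1 FPKM or more, and of these 3 were higher and 1 lower past 2-fold at day 18 than at day 0. Their summed level was 2.30, 19.6 and 18.1 FPKM on days 0, 11 and 18. Most of it came from TLX3, a homeobox gene of sensory and hindbrain neurons, at 1.11, 17.7 and 15.9 FPKM on those days. ISL1, a LIM homeobox gene of sensory neurons, went from 0.00461 to 0.528 FPKM and PRPH, the peripherin gene, from 0.287 to 1.13. Of 4 retinal ganglion cell markers, 3 averaged 0.1 FPKM or more, and of these 1 (ISL1, which is also on the sensory list) was higher past 2-fold, 1 (RBPMS, from 36.0 to 4.10 FPKM) was lower, and ATOH7 did neither and did not exceed 0.127 FPKM. Beside both lists, 10.6% of the coding records averaging 0.1 FPKM or more were higher and 28.2% lower past 2-fold between day 0 and day 18. The part of sensory and retinal cells in the class IV values was not tested.

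POU6F1 of class VI (chromosome 12, 51580720 to 51611477, minus strand, 11 exons), which encodes Brn-5, was at 1.52, 1.90, 2.35, 1.94, 1.78, 1.93 and 2.79 FPKM, day by day. The days between lay close together, and day 18 was 1.83 times day 0. Its log2 change of 0.83 was not past 2-fold as deposited, but was past it relative to the median coding record, at 1.43. POU1F1, POU2F3, POU5F1, POU5F1B and POU5F2 had mean levels below 0.1 FPKM.

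**Figure D3:**
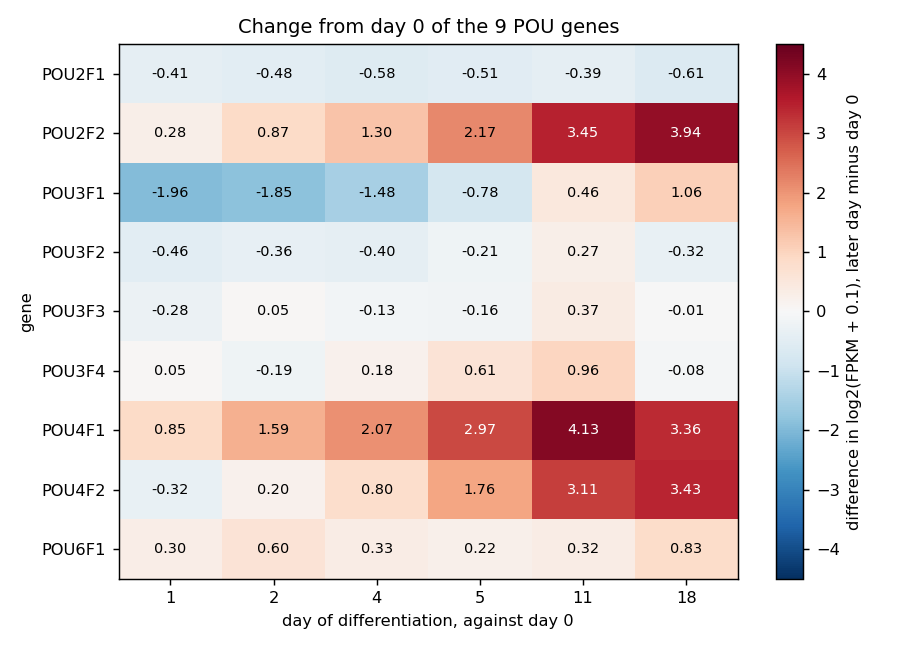
Difference in log2(FPKM + 0.1) between each later day and day 0 (columns) for the 9 POU genes (rows), printed in each cell and colored from blue (lower) to red (higher). POU2F2, POU4F1 and POU4F2 exceed 3 at days 11 and 18, while POU3F1 starts at -1.96 and ends at 1.06.

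The steps between neighboring days showed when the POU genes moved. They were counted at 2-fold, an absolute log2 change of at least 1, beside the share of 14107 coding records averaging 0.1 FPKM or more that went as far, a filter that all 9 POU genes passed. From day 0 to day 1, 1 of the 9 genes (POU3F1) was lower and none was higher, against 3.68% of coding records lower and 4.61% higher. From day 1 to day 2, when 0.269% of coding records were higher and 0.298% lower, no POU gene was past 2-fold, and neither was any from day 2 to day 4, when the shares were 0.184% and 1.11%. In both steps POU4F1, POU4F2 and POU2F2 nevertheless moved upward, with log2 changes of 0.74, 0.52 and 0.59 in the first and 0.47, 0.59 and 0.44 in the second.

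From day 4 to day 5, across the replating, no POU gene was past 2-fold, against 0.432% of coding records higher and 0.106% lower. POU4F2 came closest with a log2 change of 0.97, and recentring on the median coding record brought it to 1.04. At 1.5-fold, 4 of the 9 genes were higher and none lower in this step, where the shares of all coding records were 3.13% and 1.5%. These were POU2F2, POU3F1, POU4F1 and POU4F2, at log2 changes of 0.87, 0.70, 0.91 and 0.97. Replating and time cannot be told apart in this step.

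The step from day 5 to day 11, which spans 6 days, was the one with the most POU genes past the fold. The same 4 genes, POU2F2, POU3F1, POU4F1 and POU4F2, were higher past 2-fold and none was lower, against 2.56% of coding records higher and 4.57% lower. Their log2 changes were 1.28, 1.24, 1.15 and 1.35. All 9 genes had a higher value at day 11 than at day 5, whereas 68.3% of the coding records had a lower one. The median log2 change was 0.52 for the 9 genes and -0.15 for the 14107 coding records.

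From day 11 to day 18, POU3F4 was lower past 2-fold and no gene was higher, against 3.54% of coding records lower and 1.66% higher. This call was lost with a pseudocount of 1 and under both other scalings. POU2F2, POU3F1, POU6F1 and POU4F2 moved upward with log2 changes of 0.50, 0.60, 0.51 and 0.32, whereas POU4F1, POU3F2, POU3F3 and POU2F1 had lower values by log2 changes of -0.77, -0.59, -0.38 and -0.22. Between day 0 and day 18, 4 of the 9 genes (POU2F2, POU3F1, POU4F1 and POU4F2) were higher and none was lower, against 10.6% of coding records higher and 28.2% lower. Relative to the median coding record, POU6F1 joined them. The median log2 change was 0.83 for the 9 genes and -0.52 for the coding records. The comparisons share days, so these counts are not independent of each other.

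**Figure D4:**
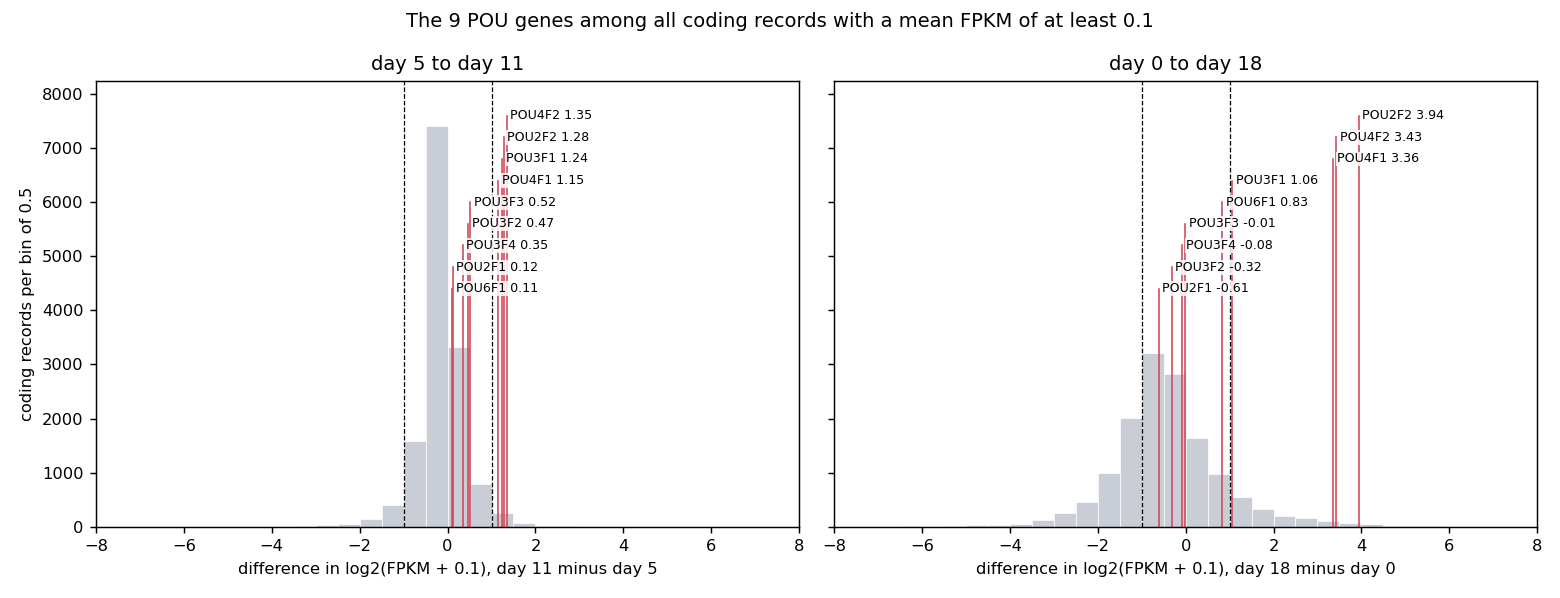
Number of coding records averaging at least 0.1 FPKM (vertical axis) by difference in log2(FPKM + 0.1) in bins of 0.5 (horizontal axis), for day 5 to day 11 (left) and day 0 to day 18 (right), with values beyond 8 either way counted in the outermost bins. Red lines mark the 9 POU genes and dashed lines 2-fold; 4 POU genes lie to the right of 1 in both panels and none to the left of -1.

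Reading the genes that work with POU factors gave a mixed picture. Of 19 partners and cofactors, 17 averaged 0.1 FPKM or more, and of these 6 were higher and 2 lower past 2-fold on day 18 than on day 0, with a median log2 change of -0.14. MYT1L, the zinc finger partner of BRN2 in neuronal conversion, went from 0.144 FPKM at the start to 1.73 by day 11 and 4.10 by day 18. SOX4, a SOX factor of young neurons, went from 36.1 to 118 and 114 FPKM on the same days, and NEUROD1, read from a record merged with CERKL, from 1.55 to 8.62 and 5.93 FPKM.

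SOX2, which binds DNA with class III factors in progenitors, went the other way, from 126 FPKM at the start to 97.6 by day 11 and 66.1 by day 18, a log2 change of -0.94, or -0.34 relative to the median coding record. The 2 genes lower past 2-fold were HCFC1, the host cell factor that meets Oct-1 on herpesvirus promoters, at 37.0 and then 16.8 FPKM, and SNAPC1, of the complex that Oct-1 recruits to small nuclear RNA genes, at 5.06 and then 2.46 FPKM. Relative to the median coding record their changes were -0.53 and -0.41, no longer past 2-fold. The other 4 SNAPC genes had log2 changes between -0.65 and -0.14. POU2AF1, the B cell coactivator of Oct-1 and Oct-2, was listed at 0 on all days.

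Known targets were read in the same way. Of 7 class III targets, 6 passed the filter, with 1 higher, 1 lower and a median log2 change of -0.01. DLL1, the Delta ligand whose enhancer Brn factors bind, went from 4.12 FPKM at the start to 33.9 by day 11 and 21.3 by day 18. NES, the progenitor intermediate filament gene, went from 513 to 310 and 180 FPKM on these days (a log2 change of -1.51, but -0.91 relative to the median coding record), and FABP7, a radial glia gene, from 195 to 181 and 258 FPKM by way of 92.8 at day 1. Of 11 class IV targets, 10 passed the filter, with 4 higher, 1 lower (RUNX1) and a median log2 change of 0.41. The 4 were SYN1, SNAP25, SNCG and INA, genes of synaptic vesicles and neuronal filaments, with log2 changes of 2.86, 2.62, 2.56 and 2.29. The class IV target GAP43, a growth cone gene, was at 193, 55.7 and 173 FPKM on days 0, 1 and 18, whereas BCL2 stayed between 4.80 and 8.82 FPKM. Neither list says whether a POU factor acted on these genes.

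Cortical genes were read because Brn-1 and Brn-2 act in cortical layers. Of 11 cortical layer and intermediate progenitor genes, 8 passed the filter, with 2 higher, 1 lower and a median log2 change of 0.55. CUX2 and RORB, of upper layers, went from 1.20 to 4.59 and from 0.939 to 2.90 FPKM between day 0 and day 18, and CUX1 from 17.8 to 30.3. Deep-layer genes differed among themselves, as FEZF2 and BCL11B did not exceed 0.124 FPKM and TBR1 was at 0.402 FPKM at day 18, whereas TLE4 went from 33.0 to 23.0 FPKM and SOX5 from 6.93 to 7.46 between day 0 and day 18. For all these lists, the median of the 14107 coding records was -0.52, and 10.6% of them were higher and 28.2% lower past 2-fold. Relative to the median of records averaging 1 FPKM or more, the list medians were 0.46 for partners, 0.59 and 1.01 for class III and class IV targets and 1.15 for cortical genes.

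Some POU values depended on how the records were drawn. The exons of the POU3F3 record covered 1502 bases, of which 99.9% were coding in GENCODE v44 (lifted to GRCh37), and held 31.3% of the exon bases that GENCODE gives this gene. The other POU records had between 32.2% and 73.8% of their bases in coding exons. The share of GENCODE exon bases held was lower still for the POU2F1 record, at 20.8%, and was 38.5% for POU3F4 and 53.9% for POU2F2. For the remaining POU records it lay between 83.6% and 99.9%. A noncoding record named linc-POU3F3-1 (chromosome 2, 105469544 to 105471772, plus strand) ended 197 bases before the POU3F3 record, and 1462 of its bases (68.1%) lay in noncoding exon parts of POU3F3 on the same strand. Levels were 63.8, 53.2, 62.9, 61.2, 62.0, 82.9 and 66.9 FPKM, day by day. The ratio of linc-POU3F3-1 to POU3F3 stayed between 1.54 and 1.74, a spread of 1.13-fold over the 7 days, while POU3F3 itself spread 1.57-fold.

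Records on the opposite strand crossed the exons of 3 other POU genes. The counting is not stated to use strand, so reads of the paired records cannot be told apart. The record linc-POU2F2-AS covered 58.1% of the POU2F2 exon bases, and 78.8% of its own bases lay in GENCODE exons of POU2F2. Its ratio to POU2F2 stayed between 0.442 and 0.587 while POU2F2 itself moved 16.7-fold. The record linc-POU3F4-AS covered 65.9% of the POU3F4 exon bases, 100% of its own bases lay in GENCODE exons of POU3F4, and its ratio to POU3F4 stayed between 1.19 and 1.38.

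POU3F1 differed from these. The record linc-POU3F1-AS covered 100% of the POU3F1 exon bases, but these were only 15.8% of its own 18524 bases. Its level was 0.931, 2.43, 1.96, 2.47, 2.73, 2.42 and 1.88 FPKM, day by day. It was lowest at day 0, when POU3F1 stood at 6.59 FPKM, and its ratio to POU3F1 ran from 0.141 on day 0 to 1.5 a day later and 0.136 on day 18. At the POU3F3 locus, linc-POU3F3-AS (also known as PANTR1) spread more than linc-POU3F3-1, with a ratio to POU3F3 between 0.934 and 1.59. The exons of linc-POU3F3-AS held 98.9% of the linc-POU3F3-1 bases, but these were only 5.05% of its own 42051 bases. In all, 42 noncoding records carried a POU gene in their names, 9 of them with a mean of at least 1 FPKM and 31 below 0.1.

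**Figure D5:**
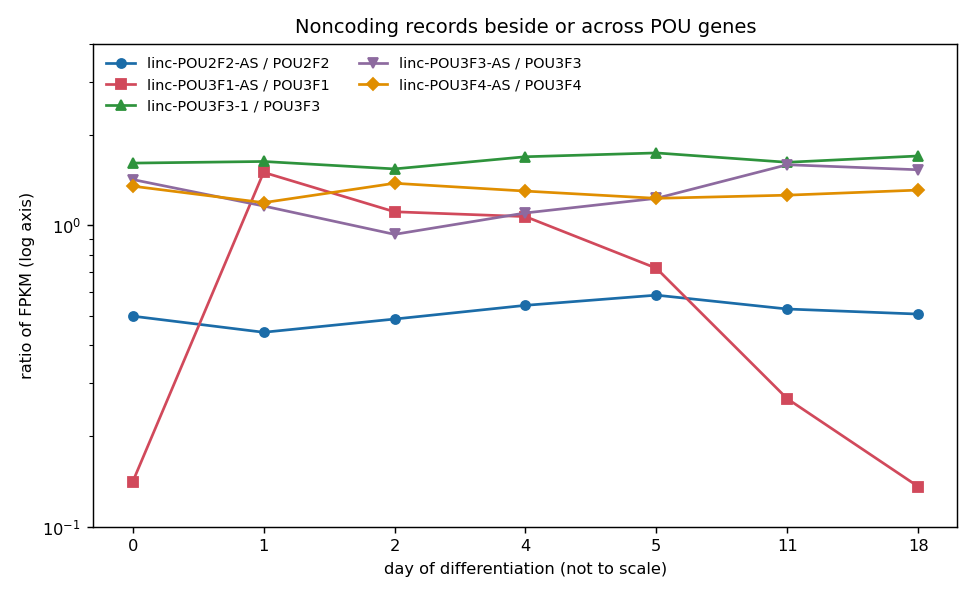
Ratio of the FPKM of 5 noncoding records to that of the POU gene they are named after (vertical, log axis) on the 7 days (horizontal, not to scale). The ratios of linc-POU2F2-AS, linc-POU3F3-1 and linc-POU3F4-AS are nearly level, whereas that of linc-POU3F1-AS goes from 0.141 to 1.5 and back to 0.136.

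Profiles over the 7 days were compared with those of 11792 other coding records averaging 1 FPKM or more, by Pearson's r of log2(FPKM + 0.1), and the 3 nearest records of each POU gene are given. These values describe 7 points that share cultures and scaling. The profiles nearest to POU2F2 were those of NCAM1, a neural adhesion molecule (r = 0.999), KIFAP3, of the kinesin-2 motor, and RAB3A, of synaptic vesicles (both 0.998). POU4F2 was nearest to SCN3A, a sodium channel gene (0.999), C1QL4, a complement-related secreted factor, and AKAP6, an anchoring protein gene (both 0.997). POU4F1 was nearest to BICD1, a dynein adaptor gene (0.997), to the record that merges CERKL with NEUROD1, and to that merging EXOC3L with KIAA0895L (both 0.995). Such high values were common for these genes, as r exceeded 0.9 for 5.72% of the records with POU2F2, 5.11% with POU4F2 and 4.2% with POU4F1. Among the 9 genes, r was 0.99 between POU2F2 and POU4F2, 0.94 between POU2F2 and POU4F1 and 0.91 between POU4F1 and POU4F2.

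The class III genes had rarer profiles than POU2F2, POU4F1 and POU4F2, but so did POU2F1 and POU6F1. POU6F1, at 0.212% of records with r above 0.9, was rarer than POU3F2 and POU3F1. Only 0.0509% of the records had r above 0.9 with POU3F3, 0.187% with POU3F4, 0.246% with POU3F2 and 1.15% with POU3F1. The records nearest to POU3F3 were DYNC1H1, the dynein heavy chain gene (0.943), FAM109A (0.936) and PELI1, a ubiquitin ligase gene (0.920). Those nearest to POU3F2 were SPEN, a transcriptional corepressor gene (0.981), ST6GAL1, a sialyltransferase gene (0.962), and GFRA1, a GDNF receptor gene (0.959). POU3F2 and POU3F3 had r of 0.82 with each other. POU3F4 was nearest to UBE2L6, a conjugating enzyme gene (0.961), a record merging ZNF197 with ZnF20 (0.955) and BCL2L11, the gene of the BIM death factor (0.950). POU3F1 was nearest to MAPRE2, a microtubule end-binding gene (0.989), NAV3, a neuron navigator gene, and CEP170, a centrosome gene (both 0.988).

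The remaining profiles were those of POU2F1, nearest to C21orf66 (0.987), IDH1, the cytosolic isocitrate dehydrogenase gene, and TRERF1 (both 0.982), and of POU6F1, nearest to CCDC120 (0.974), GAL3ST3, a sulfotransferase gene (0.968), and FAM19A5 (0.953). For these genes 1.58% and 0.212% of the records had r above 0.9. By root mean square difference, the nearest record stayed the same for POU2F1 (C21orf66) and POU2F2 (NCAM1), and became EBF3 for POU4F1, DNER for POU4F2 and NAV3 for POU3F1.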

How the data were processed

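Polyadenylated RNA of 20 samples from 7 days was measured by RNA-Seq. According to its methods, alignment to hg19 used TopHat2, assembly used Cufflinks, and Cuffdiff2 with default settings then gave levels for a merged catalogue of lincRNA and coding genes. Versions are not given in the sources used here. The FPKM values deposited by the authors hold 1 value per record and day, and the depth is unknown. Exon coordinates, and from them exon lengths (other values), came from the authors' deposited table of comparisons. Its fold changes, test statistics, p-values and q-values are the authors' own results and were not used.

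Groups were taken from the sample titles. The POU genes and all gene lists were chosen with earlier results of these data known. All 9 POU genes are named. From the lists, up to 4 genes of mean FPKM at least 1 with the largest absolute change were named, and others where a role or an absence called for it, after their values had been seen. From the profiles the 3 nearest records were named, and from the noncoding records with a POU name those averaging 1 FPKM or more. Changes were differences in log2(FPKM + 0.1), which understate changes of low genes. Records with a mean FPKM below 0.1 were left out of the background. No test was possible. Alternatives were a pseudocount of 1, no filter or a mean FPKM of at least 1, a fold of 1.5, summed records per symbol, recentring on the median coding record, division by the summed FPKM and, for profiles, the root mean square difference. The counting and the likeness measure were tested on simulated data. Overlaps used GENCODE v44 lifted to GRCh37, and upstream sequences came from RefSeq (GRCh38.p14). Python 3.11.15, pandas 2.3.3, numpy 2.4.6 and matplotlib 3.10.9 were used. Single values of some listed genes are not reported here.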

Additional observations from a re-analysis of the deposited data

How the results depend on the processing

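Of 121 values compared with an alternative, 96 stayed within the limits set for them, 18 moved and 7 changed sign. The count of 4 genes past 2-fold for days 5 to 11 was 4 under all 7 alternatives run. That for days 0 to 18 was 3 with a pseudocount of 1 (without POU3F1), 5 under both other scalings and 6 with a fold of 1.5, and 4 otherwise. With a fold of 1.5, the number of POU genes past the fold was 2, 2, 1 and 4 in the first 4 steps (days 0 to 1, 1 to 2, 2 to 4 and 4 to 5) and 4 in the last (11 to 18). After recentring on the median coding record, it was 1 for days 4 to 5 and 0 for days 11 to 18. With each day divided by its summed FPKM it was 2 for days 0 to 1, 2 for days 4 to 5 and 0 for days 11 to 18, and with a pseudocount of 1 it was 0 for days 11 to 18. The log2 change from day 0 to day 18 turned upward for POU3F2 (0.28 recentred, 0.40 divided by the sum), POU3F3 (0.59 and 0.71), POU3F4 (0.52 and 0.63) and, divided by the sum alone, POU2F1 (0.11). The day of the highest level stayed the same for all genes but POU2F1, for which it became day 18 when divided by the sum. The cause was not tested, beyond the scalings' own construction. The counts of POU genes past the fold under these alternatives join genes that were higher and genes that were lower. Shares of all coding records were not taken at these settings, except at 1.5-fold for days 4 to 5. The counts therefore show how far the calls moved, without a background to set them against.

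No paired analysis was possible because the deposited values are pooled over the cultures of a day, and for the same reason leaving out each culture was not run. The unknown depth limits what can be said of levels below 1 FPKM, such as POU4F2 at days 0 to 4.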

Other observations

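Among noncoding records away from POU exons, linc-POU3F1-2 (chromosome 1, 38765930 to 38941052, minus strand), 253480 bases from POU3F1, was at 0.0193 FPKM at day 0 and 1.35 at day 18, and linc-POU3F1-3, 662714 bases away, was at 6.97 and 3.78 FPKM. Near POU3F3 on the same strand, linc-POU3F3-6, which lies 342750 bases away, was at 2.45 and 3.90 FPKM on days 0 and 18, and linc-POU3F3-2, 145154 bases away, at 1.60 and 1.33 FPKM.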
